A study of Macaca mulatta with 24 samples.

Results

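The 34 genes described here are expressed by mature oligodendrocytes or take part in building and keeping myelin, and they were taken by gene symbol from a written list. Expression is given in TPM, a length-scaled share of each library. The deposited values were read as TPM because each library adds up to the same total, and the gene lengths behind them are not stated, so levels are less surely compared between genes than between animals. Tests covered the 13637 genes averaging 1 TPM or more, and these held all 34 members. The lowest member mean was 11.4 TPM, for ST18, so none of the 34 lay near that filter.

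RNA-Seq was done on the nucleus accumbens (NAcc) core of 24 unrelated adult male rhesus macaques (Macaca mulatta) from 4 cohorts, named 4, 5, 7a and 7b, to learn how long voluntary ethanol drinking alters the transcriptome there. The 16 drinkers first learned to drink dilute ethanol through schedule-induced polydipsia, in which food pellets come at fixed intervals, and then had ethanol and water side by side for most of each day over about a year, with no abstinence imposed before necropsy. The 8 controls had water on both spouts and a maltose dextrin solution to match calories. The tissue was a small piece of the frozen core, cut to leave out the white matter tract above it. By the labels, 8 drinkers were low drinkers (LD*, daily intake 0.47 to 2.07 g/kg) and 8 were high drinkers (HD*, 2.74 to 3.78 g/kg). HD* divides into 4 heavy (HD) and 4 very heavy (VHD) drinkers. In the paper LD* joins light and binge drinkers. Ages given there were 5 to 8 years, apart from 2 older LD* animals. The controls came from cohorts 5 (3 animals), 7a (2) and 7b (3), the LD* animals from cohorts 4 (2), 7a (3) and 7b (3), and the HD* animals from cohorts 5 (4) and 7a (4). Sequencing depth per library is unknown, because TPM sums to the same total in each library (999998 to 1000000).

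Oligodendrocytes wrap axons in a compacted, lipid-rich membrane held together by proteins such as myelin basic protein, and a few transcription factors, SOX10, OLIG2 and MYRF among them, turn on the genes for it. The NAcc core is gray matter crossed by thin myelinated fibers, and precursor cells that can still form oligodendrocytes persist in the adult brain.

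Some libraries stood apart from the others. The correlation of each library with the other 23, over log2(TPM + 1) of the tested genes, had a median of 0.924 for Control 6, 0.951 for Control 8 and 0.952 for HD* 8, against 0.960 to 0.984 for the other 21. Genes of striatal projection neurons, which define the tissue, were low in Control 6. PPP1R1B, the gene for DARPP-32, was at 303.5 TPM there and the dopamine receptor gene DRD1 at 8.14 TPM, and the 12 striatal genes summed to 861 TPM in Control 6, against 2921 TPM in Control 8 and 3723 to 12576 TPM in the other 22 animals. The most abundant of these genes, PENK, was at 265.5 TPM in Control 6, and none of the 12 was at 0 in any animal. SLC17A7, a gene of cortical excitatory neurons, was above 100 TPM in 6 libraries, which were LD* 4 (722.5 TPM), Control 2 (348 TPM), LD* 2 (212 TPM), HD* 7 (186 TPM), LD* 6 (140.0 TPM) and Control 7 (118.5 TPM).

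The myelin genes were abundant in this gray matter and varied widely between animals. Together the 34 members made up 2751 TPM in LD* 2, the lowest animal, a median of 3988 TPM, and 13686 TPM in Control 6, the highest, or 0.275% to 1.37% of the total. In bulk tissue, fewer oligodendrocytes and less RNA per oligodendrocyte cannot be told apart. Mean level over the 24 animals ran from 11.4 TPM for ST18 to 789 TPM for QDPR, with a median of 86.8 TPM. Control 6 had the highest level of 33 of the 34 members, the exception being MBP, which was highest in LD* 5 at 1801 TPM. LD* 2 had the lowest level of 12 members and HD* 8 of 10 members. The ratio of the highest animal to the lowest was 2.15 for TPPP and 13.4 for HAPLN2, with a median over the members of 6.82.

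Among the 12 members of the myelin membrane and its junctions, MBP was the most abundant by mean TPM. MBP, which holds the cytoplasmic faces of the sheath together, averaged 594.5 TPM, and CNP, an enzyme of the uncompacted myelin cytoplasm, averaged 324 TPM. MAG, the adhesion protein on the layer next to the axon, averaged 241.5 TPM, MOG, on the outer surface, 197 TPM, and MOBP 183 TPM. The same group held the tetraspan proteins PLLP (234 TPM), MAL (123 TPM) and CLDN11 (85.0 TPM), of which CLDN11 forms the tight junctions between myelin turns. GJB1, at 61.95 TPM, encodes connexin 32, a gap junction channel, and HAPLN2, at 86.8 TPM, a link protein of the matrix at the node of Ranvier. OPALIN, a membrane protein of mature oligodendrocytes, averaged 109.8 TPM and TMEM144 27.2 TPM.

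The cytoskeleton and adaptor genes were led by PPP1R14A at 268 TPM, an inhibitor of myosin phosphatase, followed by the tubulin polymerization gene TPPP at 220.1 TPM. ERMN, an actin-binding protein of late oligodendrocytes, averaged 142.5 TPM, BCAS1, which marks oligodendrocytes beginning to myelinate, 139 TPM, and ANLN, a septin partner, 46.9 TPM. Of the 8 enzymes and secreted proteins, QDPR, which regenerates tetrahydrobiopterin, averaged 789 TPM and the iron carrier transferrin (TF) 299 TPM. Enzymes of myelin lipid synthesis were lower, with FA2H at 37.5 TPM, UGT8, which makes galactosylceramide, at 34.9 TPM and ASPA, which frees acetate from N-acetylaspartate, at 21.1 TPM. ENPP2 (autotaxin, 103 TPM), the protease gene KLK6 (71.2 TPM) and the dipeptidase gene CNDP1 (32.8 TPM) made up the rest of that group. The 6 transcription factors ranged from OLIG1 at 130.1 TPM through SOX10 (82.4 TPM), NKX6-2 (66.8 TPM), OLIG2 (64.5 TPM) and MYRF (55.8 TPM) to ST18. The choline transporter gene SLC44A1 averaged 86.8 TPM, the lysophosphatidic acid receptor gene LPAR1 41.9 TPM and the sphingosine 1-phosphate receptor gene S1PR5 16.6 TPM.

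The members rose and sank together from animal to animal. A score was formed for each animal as the mean over the members of log2(TPM + 1), centered on each gene's mean, and each member was set against the score of the other 33 over the 24 animals, as a description of the same libraries. Pearson's r had a median of 0.885 and ran from 0.679 for BCAS1 to 0.980 for CNP, with 29 of 34 members above 0.8, and Spearman's rho ran from 0.573 to 0.961. Without Control 6 and LD* 5, the animals farthest from the median score, r had a median of 0.826, ran from 0.438 to 0.968, and was above 0.8 for 23 members. MBP (0.720), GJB1 (0.772), CNDP1 (0.766) and TPPP (0.799) were, with BCAS1, the 5 members under 0.8. Within cohorts the median r was 0.859 in cohort 5 (n = 7), 0.816 in cohort 7a (n = 9) and 0.947 in cohort 7b (n = 6), and its lowest value was 0.109, in cohort 7a.

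Other glial lists followed the score less closely than a second list of mature oligodendrocyte genes did. The score of 28 other mature oligodendrocyte genes had r = 0.964 with the member score (0.9525 without Control 6 and LD* 5), and that of 16 oligodendrocyte precursor genes had r = 0.554 (0.519). For 8 astrocyte genes r was 0.352 (0.250), for 8 microglia genes 0.276 (0.263), and for 3 Schwann cell genes, which belong to peripheral myelin, 0.0510 (0.03265). The score of the 12 striatal genes had r = -0.564 with the member score. That value rests on the same pair of animals, since it was -0.148 without them, and within cohorts it was -0.316 (cohort 5), 0.255 (cohort 7a) and -0.945 (cohort 7b, which holds Control 6).

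The member score lay highest in controls but overlapped between the groups. It was 0.25 ± 0.64 in controls (SD, n = 8), from -0.34 to 1.58 with a median of 0.10, and -0.14 ± 0.56 in LD* animals (n = 8), from -0.77 to 0.75 with a median of -0.29. In HD* animals it was -0.12 ± 0.42 (n = 8), from -0.61 to 0.43 with a median of -0.13. Without Control 6 the control mean was 0.06 ± 0.38 (n = 7). The differences between group means were smaller than the SD within the groups, and each group held animals on both sides of 0. Control 6, LD* 5 (0.75), Control 7 (0.69) and LD* 4 (0.67) had the highest scores, and LD* 2 (-0.77), HD* 8 (-0.61), HD* 1 (-0.60) and LD* 7 (-0.57) the lowest.

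**Figure D1:**
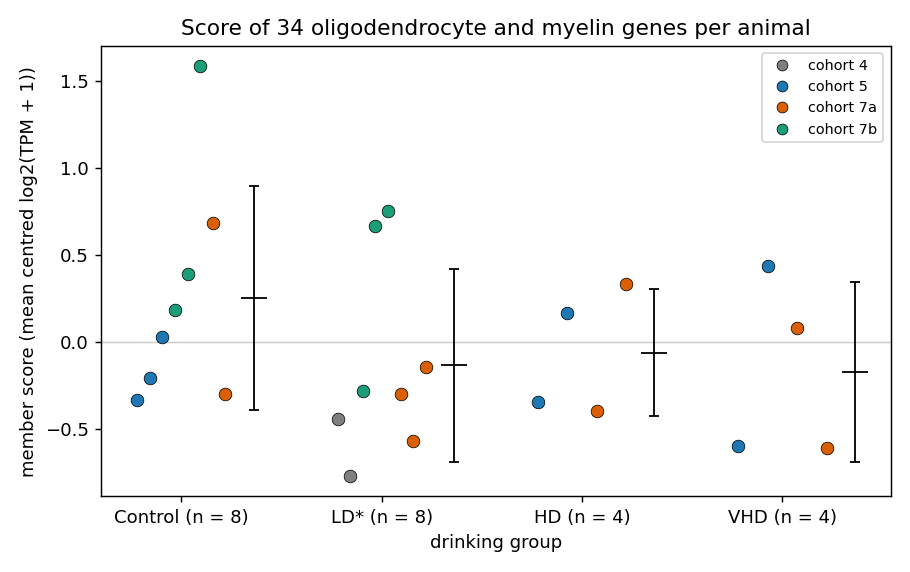
Member score of the 34 genes in each animal by drinking group, colored by cohort, with the mean and SD of each group. The mean was 0.25 in controls, -0.14 in LD*, -0.06 in HD and -0.17 in VHD animals.

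**Figure D2:**
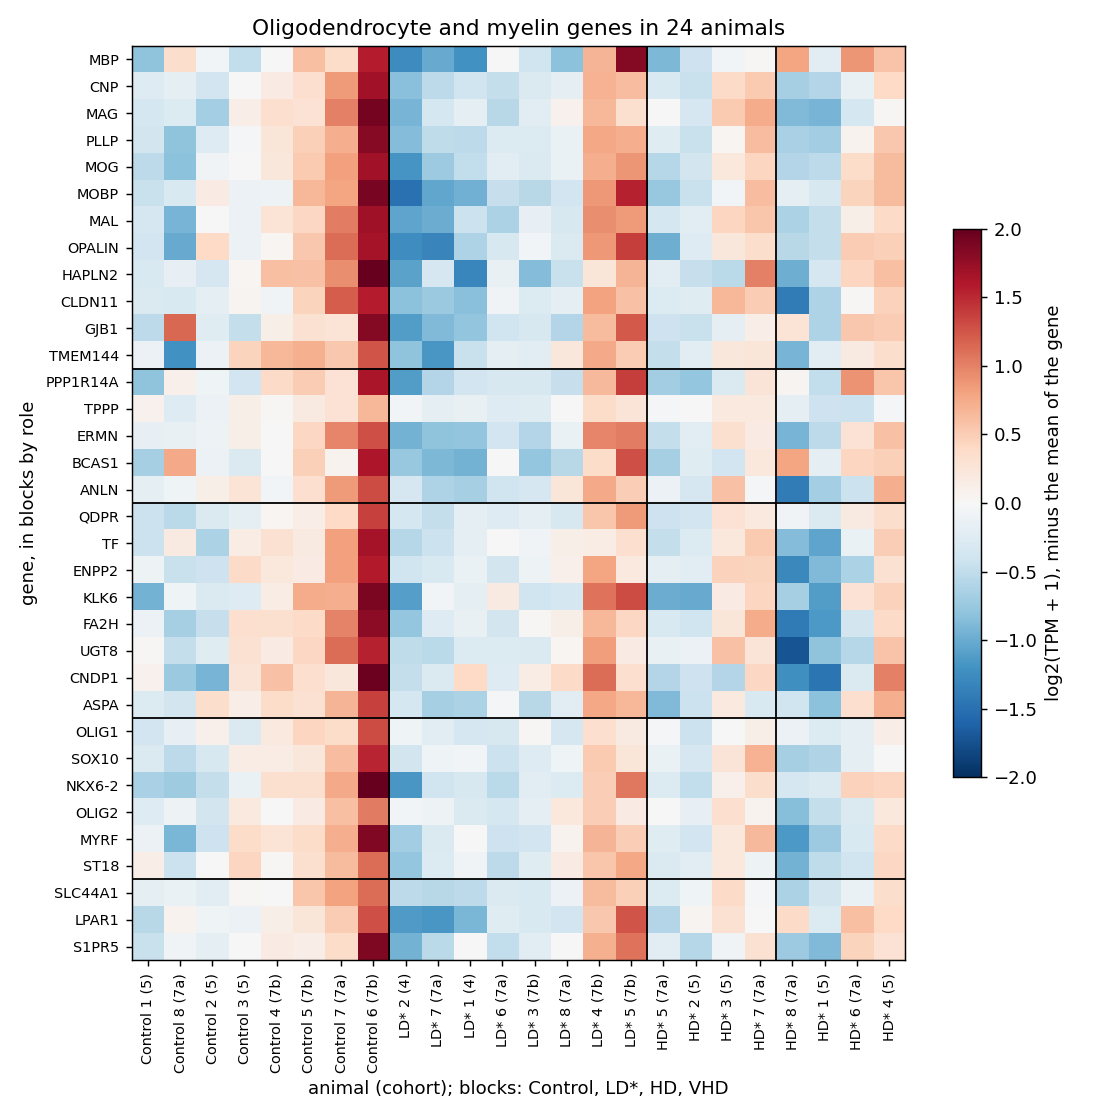
Level of each of the 34 members in the 24 animals as log2(TPM + 1) minus the gene's mean, by role and drinking group. Control 6 was the highest animal for 33 members and LD* 5 for MBP.

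The comparison of HD* animals with controls sets high drinkers against animals given no ethanol. How much the drinkers drank was not assigned, so the comparison cannot tell effects of drinking from earlier differences between animals. Each of the 34 members had a lower mean in HD* animals, but none passed the test. The median member difference was -0.37 on the log2(TPM + 1) scale, a scale on which differences of low genes are understated, and the median over all genes tested was -0.12. By limma, 0 of 34 members had an adjusted p under 0.05, against 0% of the 13637 genes. The study's own DESeq2 test did call genes here and in HD* against LD*. The shares of 0% therefore hold for limma on log2(TPM + 1) alone. At an unadjusted p under 0.05, 1 member was lower and 0 higher, against 5.29% of all genes lower and 0.396% higher. Rescaling the libraries by TMM, a trimmed mean of log ratios between libraries, moved the all-gene median from -0.12 to -0.01, and relative to that median the members lay at -0.25 as deposited and at -0.24 after TMM.

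By role, the 8 enzymes and secreted proteins had a median difference of -0.54, the 12 myelin membrane and junction genes -0.35, the 3 receptor and transporter genes -0.34, the 6 transcription factors -0.31 and the 5 cytoskeleton and adaptor genes -0.27. Without Control 6 the middle values were -0.36 (CNDP1) and -0.34 (ENPP2) for the enzymes and -0.17 (OPALIN) and -0.11 (GJB1) for the membrane genes. ST18, a zinc finger transcription factor gene, was the member under an unadjusted p of 0.05. ST18 was at 7.64 to 24.3 TPM in controls (median 12.7) and 5.04 to 14.6 TPM in HD* animals (median 8.82), and its log2 difference was -0.50 ± 0.23 (SE, adjusted p = 0.706). Its ranges overlapped, with HD* 8 lowest and Control 6 highest. UGT8 ran from 22.2 to 92.6 TPM in controls (median 37.0) and from 8.82 to 47.5 TPM in HD* animals (median 28.5), a difference of -0.60 ± 0.30 (adjusted p = 0.706). ASPA ran from 14.8 to 51.6 TPM in controls (median 24.6) and from 10.1 to 32.7 TPM in HD* animals (median 15.0), a difference of -0.52 ± 0.26 (adjusted p = 0.706). Both overlapped between the groups, with the highest value in Control 6. Without HD* 8 the UGT8 difference was -0.39.

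The most abundant members of each role differed less. MBP was at 288 to 1497 TPM in controls (median 574) and 269 to 930 TPM in HD* animals (median 498.5), and its difference of -0.11 ± 0.39 (adjusted p = 0.915) became 0.02 after TMM. QDPR was at 515 to 1931 TPM in controls (median 705) and 562 to 954 TPM in HD* animals (median 780.0), and its difference of -0.07 ± 0.23 (adjusted p = 0.905) became 0.05 after TMM. The HD* range lay inside the control range for QDPR, and for MBP too apart from HD* 5, the lowest. PPP1R14A, at 136 to 734 TPM in controls (median 272.5) and 138 to 444 TPM in HD* animals (median 219.9), had a difference of -0.27 ± 0.33 (adjusted p = 0.765). OLIG1, at 95.5 to 310.1 TPM (median 139) and 92.6 to 137 TPM (median 119), had one of -0.29 ± 0.17 (adjusted p = 0.706), and SLC44A1, at 69.9 to 179 TPM (median 83.3) and 53.0 to 108 TPM (median 76.6), one of -0.34 ± 0.21 (adjusted p = 0.706). In these genes too Control 6 was the highest animal and the groups overlapped. Without Control 6 the differences were 0.09 for MBP, 0.11 for QDPR, -0.06 for PPP1R14A, -0.14 for OLIG1 and -0.22 for SLC44A1. Other single animals moved PPP1R14A to -0.41 (without Control 1), -0.40 (HD* 6), -0.17 (HD* 5) or -0.16 (HD* 2), MBP to 0.03 without HD* 5, and MBP and QDPR elsewhere within -0.25 to -0.02. LPAR1, chosen after its values were seen, was the other member besides MBP and QDPR whose direction turned with TMM, from -0.08 to 0.05.

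The lower HD* levels rested in part on Control 6 and on which cohorts were compared. Without Control 6, 29 members were lower and 5 higher, with a median of -0.18 against -0.12 for all genes. Without Control 6 and Control 8 the median was -0.25 with 29 members lower, without these and HD* 8 it was -0.17 with 28 lower, and without the 6 libraries with SLC17A7 above 100 TPM it was -0.43 with 34 lower. Those library sets were chosen after seeing the data. With cohort in the model 22 members were lower and 12 higher, with a median of -0.11 and of 0.01 relative to all genes. In that fit MBP (0.29), QDPR (0.21) and PPP1R14A (0.12) were higher, and the differences were -0.07 for OLIG1, -0.14 for SLC44A1, -0.34 for ST18, -0.40 for UGT8 and -0.30 for ASPA. Within cohort 5 (4 HD*, 3 controls) 24 members were higher and 10 lower, with a median of 0.09, and within cohort 7a (4 HD*, 2 controls) 31 were lower, with a median of -0.22. The count at an unadjusted p under 0.05 was 10 without Control 8 (9.88% of all genes), 8 without HD* 4 (15.8%), 6 without Control 2 (4.34%) or HD* 3 (5.94%), 5 without Control 1 (5.29%) or HD* 7 (5.20%), and 0 without Control 6 (4.31%), Control 7 (4.83%), HD* 1 (3.84%) or HD* 8 (2.30%). On the log2 scale the 12 striatal genes each had a higher mean in HD* animals, with a median difference of 0.42. At an unadjusted p under 0.05 there were 0, and PDE10A and FOXP1 had a lower mean TPM. The striatal score was -3.05 in Control 6, -1.07 to 0.97 in the other controls and -0.74 to 0.84 in HD* animals. That HD* range lay inside the one of the other controls. The 16 precursor genes (median -0.34) and the 8 astrocyte genes (median -0.25) each had a lower mean, as the members did. Of them 6 and 2 had an unadjusted p under 0.05, against 5.29% of all genes lower. The part of these lists in the member differences was not tested.

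LD* animals were set against the same 8 controls, so the comparison shares Control 6 with the one above. All 34 members again had a lower mean in the drinkers, with a median log2 difference of -0.40 against -0.03 over all genes tested. By limma 0 of 34 members had an adjusted p under 0.05, against 0% of all genes, and at an unadjusted p under 0.05 1 member was lower and 0 higher, against 2.54% of all genes lower and 0.293% higher. The 34 members kept their direction after TMM, with a median of -0.36. Relative to the all-gene median the members lay at -0.37 both as deposited and after TMM.

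The myelin membrane and junction genes had the lowest median of the 5 roles, -0.47, followed by the cytoskeleton and adaptor genes (-0.43), the receptor and transporter genes (-0.39), the enzymes and secreted proteins (-0.33) and the transcription factors (-0.31). Without Control 6 the first roles changed places. The middle values were then -0.28 (OPALIN) and -0.27 (MBP) for the membrane genes and -0.29 (ANLN) for the cytoskeleton genes. The transcription factors ran from -0.20 (ST18) to -0.05 (OLIG2) in that fit. HAPLN2 was the member under an unadjusted p of 0.05, with 56.7 to 382 TPM in controls (median 92.0) and 28.5 to 117 TPM in LD* animals (median 54.7), a difference of -0.87 ± 0.35 (adjusted p = 1.00). Its lowest values were in LD* 1 and LD* 2, the cohort 4 animals, and the ranges overlapped. GJB1 ran from 37.4 to 195 TPM in controls (median 61.9) and from 24.3 to 128 TPM in LD* animals (median 38.2), a difference of -0.58 ± 0.33 (adjusted p = 1.00). SLC44A1 ran from 55.9 to 128 TPM in LD* animals (median 67.1), a difference from controls of -0.39 ± 0.21 (adjusted p = 1.00). In both genes the LD* and control ranges overlapped. Without Control 6 the GJB1 difference was -0.36.

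MBP spread more widely in LD* animals than in either other group. It was at 209 to 1801 TPM (median 332), with LD* 5 and LD* 4 (808 TPM) high and the other 6 animals at 209 to 498.5 TPM, and its difference from controls was -0.47 ± 0.39 (adjusted p = 1.00). PPP1R14A, at 109 to 620 TPM in LD* animals (median 185.5), differed by -0.35 ± 0.33 and QDPR, at 537 to 1348 TPM (median 639), by -0.11 ± 0.23. OLIG1, at 98.9 to 159 TPM (median 113), differed by -0.29 ± 0.17. The adjusted p of each of these 3 genes was 1.00, and LD* 5 or LD* 4 was their highest LD* animal. Without Control 6 the differences were -0.27 for MBP, -0.14 for PPP1R14A, 0.08 for QDPR and -0.13 for OLIG1. Without LD* 5 they were -0.77 for MBP, -0.57 for PPP1R14A and -0.24 for QDPR, and without LD* 2 -0.21 for PPP1R14A.

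Without Control 6, 31 members were lower in LD* animals and 3 higher, with a median of -0.21, and 0 had an unadjusted p under 0.05. The median was -0.27 with 31 lower both without Control 6 and Control 8 and without these and HD* 8, and -0.37 with 34 lower without the libraries with SLC17A7 above 100 TPM. With cohort in the model the median was -0.33 with 34 lower. Within cohort 7a (3 LD*, 2 controls) 33 members were lower, with a median of -0.54, and within cohort 7b (3 LD*, 3 controls) 34 were lower, with a median of -0.32. The count at an unadjusted p under 0.05 was 10 without LD* 5 (3.99% of all genes), 7 without LD* 4 (5.18%), 4 without Control 1 (3.63%), 2 without Control 2 (2.91%) or Control 8 (3.01%), and 21 when limma weighted the libraries by their quality (11.0%). On the log2 scale the 12 striatal genes each had a higher mean in LD* animals, with a median difference of 0.37. The striatal score ran from -0.67 to 0.68 in LD* animals, inside the -1.07 to 0.97 of the controls other than Control 6 (-3.05). At an unadjusted p under 0.05 there were 0 striatal genes, and PDE10A and FOXP1 again had a lower mean TPM. The 8 astrocyte genes (median -0.23, 2 at that level) and the 8 microglia genes (median -0.23, 0) each had a lower mean, as the members did, and the part of these cells was not tested.

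HD* and LD* animals were compared to set high against low drinking. The members were divided, with 18 higher and 16 lower in HD* animals and a median log2 difference of 0.04 against -0.08 over all genes. By limma 0 of 34 had an adjusted p under 0.05, against 0% of all genes, and 0 had an unadjusted p under 0.05 in either direction, against 0.330% of all genes higher and 0.748% lower. After TMM 23 members were higher and 11 lower, and TPPP, ASPA, SOX10, OLIG1 and MAG turned from lower to higher. No difference between roles was tested. Of the 12 myelin membrane and junction genes 11 were higher, with MAG the exception at -0.01 (0.08 after TMM), while 7 of the 8 enzymes and secreted proteins were lower (6 after TMM), with QDPR the exception at 0.03 ± 0.23. With cohort in the model 12 of the 12 membrane and junction genes were higher and the enzymes and secreted proteins were divided, 4 higher and 4 lower.

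CNDP1, which encodes carnosinase, had the lowest difference. It was at 20.0 to 62.4 TPM in LD* animals (median 33.8) and 9.66 to 57.7 TPM in HD* animals (median 19.7), a difference of -0.56 ± 0.35 (adjusted p = 0.9365). LPAR1 had the highest, at 16.5 to 92.6 TPM in LD* animals (median 29.8) and 25.2 to 58.2 TPM in HD* animals (median 43.4), a difference of 0.40 ± 0.29 (adjusted p = 0.9365). The CNDP1 and LPAR1 ranges overlapped between the groups, and for LPAR1 the highest animal was LD* 5, against the direction of the means. BCAS1 ran from 63.4 to 302 TPM in LD* animals (median 78.2) and from 77.3 to 213 TPM in HD* animals (median 125), a difference of 0.33 ± 0.31 (adjusted p = 0.9365). MBP differed by 0.36 ± 0.39, PPP1R14A by 0.08 ± 0.33, SLC44A1 by 0.05 ± 0.21 and OLIG1 by -0.01 ± 0.17, which became 0.08 after TMM. The largest adjusted p among the 34 was 0.997. Without LD* 5 the differences were 0.66 for MBP, 0.62 for LPAR1 and 0.56 for BCAS1, and MBP was at 0.23 without LD* 1 and 0.22 without LD* 2. PPP1R14A, QDPR, OLIG1 and SLC44A1 took either sign as single animals were left out. Adding cohort to the model put CNDP1 at -0.16 and ST18 lowest at -0.18, and the differences were 0.68 for MBP, 0.66 for BCAS1, 0.59 for LPAR1, 0.53 for PPP1R14A, 0.35 for QDPR, 0.32 for OLIG1 and 0.18 for SLC44A1, with adjusted p of 0.641 or more.

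The near-even division moved with single animals. The median became negative without LD* 1 (-0.01), LD* 2 (-0.05), LD* 7 (-0.03), HD* 3 (-0.02), HD* 4 (-0.03) or HD* 7 (-0.03), and it rose to 0.15 without LD* 5 and 0.14 without LD* 4. It was 0.08 without HD* 1 or HD* 8, 0.07 without HD* 5, 0.06 without HD* 2, 0.02 without LD* 3, and 0.01 without LD* 6 or HD* 6. The members lower numbered 25 without LD* 2. With the library weights 32 members were higher, with 6 at an unadjusted p under 0.05 (4.33% of all genes), and with cohort in the model 27 were higher. Within cohort 7a, which alone holds both groups (4 HD*, 3 LD*), 23 were higher, with a median of 0.17. Without HD* 4 (4.02% of all genes) or LD* 5 (3.92%), 1 member had an unadjusted p under 0.05.

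VHD and HD animals were compared within HD*, to set very heavy against heavy drinking, and here MBP was the 1 member called, a call that did not hold in most fits with 1 animal fewer. It was lost without HD* 2, HD* 3, HD* 5, HD* 6, HD* 7 or HD* 8 (adjusted p from 0.0602 to 0.153), with no filter on low genes (0.116) and with all 4 groups in one model (0.258). MAG, also a protein of the myelin membrane, was lower without passing the test. MBP was at 376 (HD* 2), 485 (HD* 3), 269 (HD* 5) and 512 TPM (HD* 7) in HD animals and at 429 (HD* 1), 751 (HD* 4), 930.2 (HD* 6) and 875 TPM (HD* 8) in VHD animals. Of the VHD animals, HD* 4, HD* 6 and HD* 8 lay above all 4 HD animals, and HD* 1 lay within their range. The log2 difference was 0.84 ± 0.26 by limma (SE, adjusted p = 0.0465) and 1.05 ± 0.33 after TMM (adjusted p = 0.0499). Over the members 12 were higher and 22 lower, with a median of -0.14 against -0.17 over all genes. The VHD libraries other than HD* 1 were less like the rest than the HD libraries were. Median correlation with the other libraries was 0.978 (HD* 1), 0.962 (HD* 4), 0.9595 (HD* 6) and 0.952 (HD* 8). In HD animals it was 0.977 to 0.980. The part of this in the differences was not tested.

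MBP was the 1 of 34 members with an adjusted p under 0.05, so 1 was higher and 0 lower, against 3.23% of all genes higher and 11.4% lower. At an unadjusted p under 0.05, 2 members were higher, MBP and BCAS1, against 8.08% of all genes, and 3 were lower, MAG, TPPP and ENPP2, against 24.6%. The members' shares were near or under those of all genes. Over all genes 441 were higher and 1556 lower at an adjusted p under 0.05, and after TMM 1170 were higher and 1402 lower. TMM moved the all-gene median from -0.17 to 0.01, and relative to it the members lay at 0.03 as deposited and at 0.06 after TMM. After TMM 19 members were higher and 15 lower, and SLC44A1, PLLP, TMEM144, ERMN, S1PR5, OLIG1 and HAPLN2 turned from lower to higher.

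MAG was at 169.5 (HD* 2), 309 (HD* 3), 212 (HD* 5) and 359 TPM (HD* 7) in HD animals and at 112 (HD* 1), 218 (HD* 4), 167.5 (HD* 6) and 116.5 TPM (HD* 8) in VHD animals. HD* 4 was the VHD animal that reached into the HD range, and the other 3 lay below it. The difference was -0.76 ± 0.26 (adjusted p = 0.0667), and it passed the test without HD* 2 or HD* 4 (-0.95 in either case) but not when any of the other animals was left out. After TMM it was -0.56 ± 0.25 (adjusted p = 0.134). BCAS1 was at 104 (HD* 2), 94.8 (HD* 3), 77.3 (HD* 5) and 142 TPM (HD* 7) in HD animals and at 109 (HD* 1), 171 (HD* 4), 166 (HD* 6) and 213 TPM (HD* 8) in VHD animals. HD* 7 was the HD animal that reached into the VHD range. The difference was 0.65 ± 0.22 (adjusted p = 0.0667), and it passed without HD* 1 (0.83) but not when any of the other animals was left out. After TMM it was 0.85 ± 0.28 (adjusted p = 0.0601).

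The ratio of MBP to MAG, chosen after the values were seen and given with no test, parted the categories. MBP and MAG had the smallest p of the members by limma here, in opposite directions. The parting therefore follows in part from that choice and adds nothing to their differences. The ratio was 2.22 (HD* 2), 1.57 (HD* 3), 1.27 (HD* 5) and 1.43 (HD* 7) in HD animals. In VHD animals it was 3.82 (HD* 1), 3.44 (HD* 4), 5.55 (HD* 6) and 7.51 (HD* 8). These values did not overlap, but those of other animals crossed both, from 1.50 to 3.64 in controls and from 1.15 to 6.70 in LD* animals, with LD* 5 highest. The member score was -0.06 ± 0.37 in HD and -0.17 ± 0.52 in VHD animals (SD, n = 4 each), and it overlapped. HD* 1 and HD* 8 were the low VHD animals at -0.60 and -0.61, and HD* 4 (0.43) and HD* 6 (0.08) the high ones, and the HD scores were -0.35 (HD* 2), 0.17 (HD* 3), -0.40 (HD* 5) and 0.33 (HD* 7).

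Of the other roles, 5 of 6 transcription factors were lower in VHD animals, with NKX6-2 the exception, and OLIG1, at -0.03 ± 0.15, turned to 0.18 after TMM. OLIG1 was at 92.6, 124.0, 123 and 136.5 TPM in HD* 2, HD* 3, HD* 5 and HD* 7 and at 104, 137, 109 and 116 TPM in HD* 1, HD* 4, HD* 6 and HD* 8. Of the enzymes and secreted proteins 5 of 8 were lower, the lowest being UGT8 at -0.77 ± 0.38, and QDPR differed by 0.12 ± 0.20. QDPR was at 570, 915, 562 and 857 TPM in HD* 2, HD* 3, HD* 5 and HD* 7 and at 613, 954, 846 and 713.5 TPM in HD* 1, HD* 4, HD* 6 and HD* 8. Both genes overlapped between the categories. PPP1R14A differed by 0.63 ± 0.29 (adjusted p = 0.157), with 138, 194, 146 and 284 TPM in HD* 2, HD* 3, HD* 5 and HD* 7 and 169, 347, 444 and 246 TPM in HD* 1, HD* 4, HD* 6 and HD* 8. SLC44A1 differed by -0.20 ± 0.21, or 0.00 after TMM, with 77.9, 108, 68.0 and 80.9 TPM in those HD and 63.3, 105, 75.2 and 53.0 TPM in those VHD animals. HD* 6 was highest for PPP1R14A and HD* 3 for SLC44A1, and in these genes too the categories overlapped. The PPP1R14A difference was 0.88 without HD* 1 (adjusted p = 0.0498) and 0.41 without HD* 6 (adjusted p = 0.402), and that of SLC44A1 -0.38 without HD* 4, -0.07 without HD* 3 and -0.06 without HD* 8. OLIG1 took either sign and QDPR ranged from 0.01 to 0.25 as single animals were left out.

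**Figure D3:**
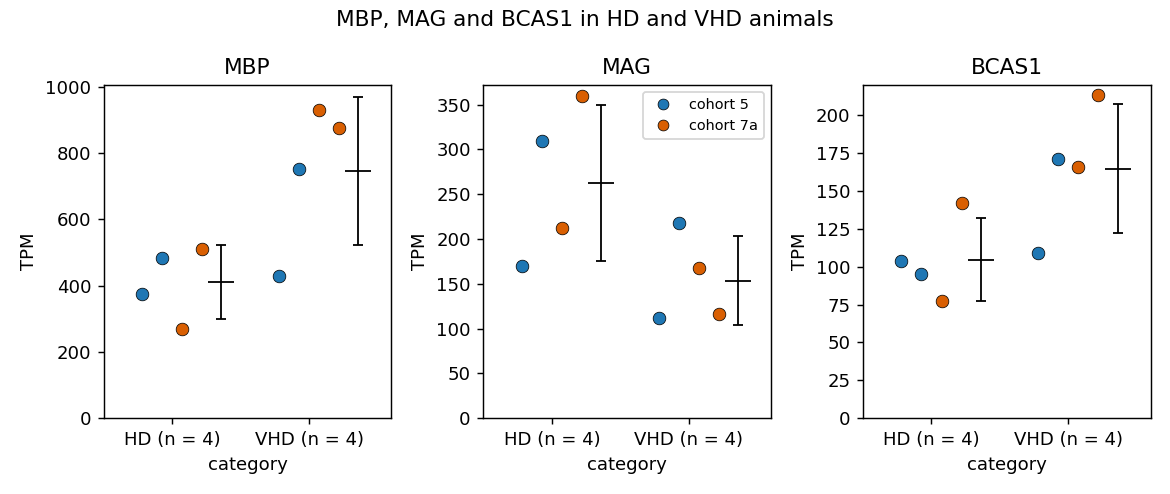
MBP, MAG and BCAS1 in TPM in the 4 HD and 4 VHD animals, colored by cohort, with the mean and SD of each category. The log2 differences of VHD from HD were 0.84 for MBP, -0.76 for MAG and 0.65 for BCAS1, and MBP was the 1 member with an adjusted p under 0.05 with all 8 animals in the fit.

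The MBP call depended on single animals. Leaving out HD* 2 gave an adjusted p of 0.101, HD* 3 0.0732, HD* 5 0.138, HD* 6 0.153, HD* 7 0.0602 and HD* 8 0.0886, while the call held without HD* 1 (0.0103) and HD* 4 (0.0391). The difference was the same 0.84 with cohort in the model and the call was kept (adjusted p = 0.0388). It was lost with no filter on low genes (0.116) and with all 4 groups in one model (0.258). In cohort 7a the difference was 1.28 ± 0.28 (adjusted p = 0.0217) and in cohort 5 it was 0.41 ± 0.28 (adjusted p = 0.563), with 2 HD and 2 VHD animals each, and the difference between cohorts was not tested. The count of members called was 4 without HD* 1 (BCAS1, GJB1, MBP and PPP1R14A, all higher), 9 without HD* 4 (MBP higher, 8 lower), 1 without HD* 2 (MAG, lower), 11 with library weights and 4 in cohort 7a, where LPAR1 and MBP were higher and ENPP2 and MAG lower. Of all genes 15.2%, 34.1%, 8.02%, 55.8% and 27.2% were called in the same fits, so the members' share was lower than that of all genes in each. The median turned to 0.01 without HD* 1, HD* 7 or HD* 8, was -0.36 without HD* 4, -0.25 without HD* 5, -0.24 without HD* 6 and -0.22 without HD* 2. The count at an unadjusted p under 0.05 was 15 without HD* 4 (46.1% of all genes) and 3 without HD* 3 (25.4%) or HD* 6 (23.8%). Over all genes the 1997 called became 4651 without HD* 4, 1094 without HD* 2, 723 without HD* 7, 681 without HD* 3, 607 without HD* 5 and 476 without HD* 6.

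Markers of other cells moved with this comparison in the fit of the 8 HD* animals. In that fit 11.4% of all genes were lower and 3.23% higher at an adjusted p under 0.05. With all 4 groups in one model 0 genes were called, so none of the marker calls below held there. In cohort 5 alone 1 gene was called, and in cohort 7a alone 3714. Of the 12 striatal genes 11 fell in VHD animals at an adjusted p under 0.05, the exception being TAC1, with a median of -1.12. Their sum was 10858, 9740.5, 11358 and 10146 TPM in HD* 2, HD* 3, HD* 5 and HD* 7, and 6573.5, 3723, 5408 and 6500.4 TPM in HD* 1, HD* 4, HD* 6 and HD* 8, so the categories did not overlap. Of 8 microglia genes 6 were higher and 2 lower, TMEM119 (-0.57) and CX3CR1 (-0.006). At an adjusted p under 0.05 4 rose, AIF1, C1QA, C1QB and C1QC, and C1QB, the most abundant, differed by 0.64 ± 0.19. The sum of the 8 microglia genes was 378, 429, 386 and 335 TPM in those HD and 437, 676.0, 746 and 534 TPM in those VHD animals, again with no overlap. Of 8 astrocyte genes 7 were higher and 1, SOX9, lower (-0.29), and 1 passed at an adjusted p under 0.05. It was GFAP, the most abundant, which rose by 1.39 ± 0.30 (adjusted p = 0.0135). The sum of the 8 was 3377, 3092, 1869.8 and 3087 TPM in those HD and 4523, 6715, 4583 and 3991.5 TPM in those VHD animals. Of that sum GFAP alone averaged 1171 TPM in HD and 2911 TPM in VHD animals. Of 8 general neuron genes 7 were lower, with a median of -0.71, and 3 fell at an adjusted p under 0.05, SNAP25 (-0.97 ± 0.21), SYT1 (-1.04 ± 0.28) and NEFM (-1.17 ± 0.35). No gene of these 4 lists was at 0 in any animal. The part of these cells in the MBP and MAG values was not tested.

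Within the 16 drinkers each gene was also fitted against daily ethanol intake, which was not assigned to the animals. Of the members 22 had a positive slope and 12 a negative one, with a median of 0.08 log2 per g/kg against -0.07 over all genes. By limma 0 of 34 had an adjusted p under 0.05, against 0% of all genes, and at an unadjusted p under 0.05 2 slopes were positive and 0 negative, against 1.49% of all genes positive and 5.16% negative. The 12 myelin membrane and junction genes each had a positive slope, with a median of 0.20, and the 3 receptor and transporter genes did too, with a median of 0.08. The 8 enzymes and secreted proteins were mostly negative (6 of 8, median -0.05). After TMM 30 members had a positive slope, and TPPP, UGT8, TF, SOX10, MYRF, ANLN, ST18 and KLK6 turned from negative to positive.

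LPAR1 (0.36 ± 0.15 per g/kg) and BCAS1 (0.33 ± 0.15) were the members under an unadjusted p of 0.05, and MBP came next at 0.42 ± 0.20, each with an adjusted p of 0.5115. The lowest LPAR1 values among drinkers were in LD* 7 (16.5 TPM), LD* 2 (16.9 TPM) and LD* 1 (19.7 TPM), and the highest was in LD* 5 (92.6 TPM), whose intake of 2.07 g/kg was the highest of the LD* animals. PPP1R14A had a slope of 0.21 ± 0.17, QDPR of 0.08 ± 0.10, SLC44A1 of 0.08 ± 0.10 and OLIG1 of 0.01 ± 0.07. Without LD* 2, which had the lowest intake at 0.47 g/kg, the median slope was 0.01, and without HD* 1, with the highest at 3.78 g/kg, it was 0.15 with 31 positive. It was also lower without HD* 4 (0.05) or LD* 1 (0.05). Without LD* 2 the slopes were 0.07 for PPP1R14A, 0.04 for QDPR and 0.03 for SLC44A1, and without HD* 1 0.14 for QDPR and SLC44A1. The SLC44A1 slope was also 0.14 without HD* 8 and 0.05 without LD* 1, HD* 3 or HD* 4, and that of OLIG1 took either sign. In the fit with cohort the slopes were 0.84 for MBP, 0.68 for BCAS1, 0.66 for PPP1R14A and 0.58 for LPAR1 (adjusted p = 0.134 each), 0.33 for QDPR, 0.13 for OLIG1 and 0.03 for SLC44A1.

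The counts at an unadjusted p under 0.05 moved with the fit. The count was 7 without LD* 5 (13.1% of all genes), 6 without HD* 1 (5.79%) or LD* 4 (5.42%), 4 without HD* 5 (8.43%), 3 without HD* 3 (11.4%), 0 without LD* 1 (3.798%), and 1 (2.25% to 8.95%) without LD* 2, LD* 3, LD* 7, LD* 8, HD* 6 or HD* 7. With drinking group in the model, so that the slope was taken within LD* and HD*, 31 members were positive, with a median of 0.37 and 7 at an unadjusted p under 0.05 (8.12% of all genes). With cohort in the model 23 were positive, with a median of 0.15 and 7 at that level (29.4%), and with library weights 32 were positive, with 12 at that level, 11 of them positive (6.97%). Without HD* 8, 30 were positive, and without the libraries with SLC17A7 above 100 TPM 20 were positive, with a median of 0.04.

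The members were also compared between cohorts. With drinking group in the model, 20 of 34 members had an unadjusted p under 0.05 for differences between the 4 cohorts, against 8.36% of all genes, but by limma 0 had an adjusted p under 0.05, against 0% of all genes, and the smallest was 0.540. The 20 were 10 of the 12 myelin membrane and junction genes (MAG and CLDN11 were the exceptions), 3 of 5 cytoskeleton and adaptor genes, 2 of 8 enzymes and secreted proteins, 2 of 6 transcription factors and 3 of 3 receptor and transporter genes. At that level were also 7 of 28 other mature oligodendrocyte, 2 of 8 astrocyte, 2 of 8 microglia, 1 of 16 precursor and 1 of 3 Schwann cell genes. None of the endothelial, striatal, general neuron or cortical genes was, and the part of these cells was not tested. The member score was 0.55 ± 0.63 in cohort 7b (SD, n = 6), -0.12 ± 0.35 in cohort 5 (n = 7), -0.14 ± 0.43 in cohort 7a (n = 9), and -0.77 and -0.44 in the 2 animals of cohort 4. Cohort 7b held Control 6 and LD* 5, and its lowest animal, LD* 3 at -0.28, overlapped with cohorts 5 and 7a.

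PPP1R14A, OLIG1 and MBP had the smallest p. PPP1R14A ran from 190.5 to 734 TPM in cohort 7b (median 355), from 136 to 347 TPM in cohort 5 (median 182) and from 146 to 444 TPM in cohort 7a (median 246), and was at 109 and 181 TPM in cohort 4. OLIG1 ran from 127.5 to 310.1 TPM in cohort 7b (median 151), from 92.6 to 137 TPM in cohort 5 (median 104) and from 99.5 to 162.5 TPM in cohort 7a (median 111), and was at 98.9 and 118 TPM in cohort 4. MBP ran from 380 to 1801 TPM in cohort 7b (median 788), from 288 to 751 TPM in cohort 5 (median 429) and from 250 to 930.2 TPM in cohort 7a (median 512), and was at 209 and 216 TPM in cohort 4. In the 3 genes the cohort 7b medians were the highest and the ranges of cohorts 5, 7a and 7b overlapped. Medians of QDPR were 955, 613 and 621 TPM and those of SLC44A1 118, 77.9 and 75.2 TPM in cohorts 7b, 5 and 7a.

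Without Control 6 the count under an unadjusted p of 0.05 was 13 (5.06% of all genes), without Control 6 and Control 8 it was 11 (3.78%), without these and HD* 8 12 (3.82%), and without the libraries with SLC17A7 above 100 TPM 12 (8.66%). It was 13 with library weights (20.3%), 18 without cohort 4 (12.3%), an alternative added after seeing the data, and 25 with no drinking group in the model (7.26%). Cohorts and groups were not balanced, since cohort 4 held LD* animals alone, cohort 5 no LD* and cohort 7b no HD*, so cohort and drinking group cannot be fully told apart.

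Whether the drinking difference itself differed between cohorts was tested where both groups were present. The HD* difference was higher in cohort 5 than in cohort 7a for 32 members and lower for 2, with a median of 0.33 against 0.06 over all genes. By limma 0 of 34 had an adjusted p under 0.05, against 0% of all genes, and 1, SLC44A1, had an unadjusted p under 0.05, against 2.16% of all genes. SLC44A1 differed from controls by 0.20 ± 0.20 in cohort 5 and by -0.60 ± 0.31 in cohort 7a, where Control 7 was highest at 144 TPM. The LD* difference was higher in cohort 7a than in cohort 7b for 11 members and lower for 23, with a median of -0.12 against 0.16 over all genes. By limma 0 members had an adjusted p under 0.05, against 0% of all genes, and 0 an unadjusted p under 0.05, against 2.29%. Score differences showed the same spread, with HD* minus controls at 0.09 in cohort 5 and -0.34 in cohort 7a, LD* minus controls at -0.53 in cohort 7a and -0.34 in cohort 7b, and HD* minus LD* at 0.19 in cohort 7a.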

How the data were processed

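The authors deposited 1 table per gene and library, named as normalized counts and read here as TPM because each column adds up to 999998 to 1000000. By the submitters' notes, reads were aligned to the MacaM assembly with STAR 2.5.2b and counted with HTSeq 0.6.1p1, and they tested with DESeq2. From these TPM, log2(TPM + 1) of the 13637 genes averaging 1 TPM or more was fitted with limma 3.58.1 (trend, Benjamini-Hochberg over all genes) in R 4.3.3: 3 groups in one model, VHD against HD in the 8 HD* animals, the slope with intake in the 16 drinkers, cohort adjusted for group, and 2 interactions. Summaries used Python 3.11.15. Groups, cohorts and intake came from the labels, and animals were numbered in the order of the labels, which give no replicate numbers. The fit was tested on simulated data. Alternatives changed the pseudocount, filter, scaling (TMM), library weights, covariates and animals. Full statistics were given for the member with the highest mean in each role and the 3 members with the smallest p in each comparison, and of each other list (other mature oligodendrocyte, precursor, Schwann, astrocyte, microglia, endothelial, striatal, general neuron and cortical genes) for at most the most abundant gene and the one with the smallest p in HD* against controls. Outside that rule, SYT1, NEFM and NFASC were given for VHD against HD. They passed the test there and were chosen after their values were seen. Members and lists were chosen with earlier results of these data known.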

Additional observations from a re-analysis of the deposited data

Results flagged for a closer look

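In 3 of 170 combinations of gene and group or category, 1 animal lay far from the rest of its group by the gap to its nearest neighbor over the whole range. Chance alone does this in about 1 in 20 groups. HAPLN2 was at 382.2 TPM in Control 6, against 56.7 to 138 TPM in the other 7 controls. S1PR5 was at 56.8 TPM in Control 6, against 10.6 to 19.4 TPM in the others. CNDP1 was at 37.87 TPM in HD* 7, against 18.5 to 20.9 TPM in the other 3 HD animals.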

How the results depend on the processing

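No paired analysis was possible because the labels pair no animals. Without the 2 or 3 libraries least like the others, without the libraries with SLC17A7 above 100 TPM and without cohort 4 are alternatives chosen after seeing the data. For HD* against controls, 22 members were lower with cohort as covariate and 10 in cohort 5. MBP turned to 0.0171 (TMM), 0.29 (cohort covariate), 0.42 (cohort 5), 0.15 (2 libraries) and 0.0451 (3 libraries), PPP1R14A to 0.12 (covariate) and 0.17 (cohort 5), and QDPR to 0.0543 (TMM), 0.21 (covariate), 0.30 (cohort 5), 0.0477 (cohort 7a), 0.0474 (2 libraries) and 0.0546 (3 libraries). In cohort 5 OLIG1 was 0.0454, SLC44A1 0.20 and UGT8 0.0318. QDPR in LD* against controls was 0.0132 without 2 or 3 libraries. In HD* against LD*, PPP1R14A was -0.0354 without the SLC17A7 libraries, and OLIG1 was 0.0826 (TMM), 0.0836 (library weights), 0.32 (covariate), 0.23 (cohort 7a) and 0.00223 (SLC17A7 libraries). In VHD against HD, 1997 genes became 7613 (weights), 1 (cohort 5), 3714 (cohort 7a), 0 (4 groups) and 723 (SLC17A7 libraries), and the 1 member called became 11 (weights), 4 (cohort 7a) and 0 with no filter, in cohort 5, with 4 groups, without 3 libraries and without the SLC17A7 libraries. There OLIG1 was 0.18 (TMM), 0.15 (cohort 5) and 0.0455 (SLC17A7 libraries), and SLC44A1 0.00444 (TMM). For cohort, 20 members became 13 (weights), 11 (2 libraries), 12 (3 libraries) and 12 (SLC17A7 libraries).

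With each animal left out in turn, members at an unadjusted p under 0.05 ranged from 0 to 10 (HD* against controls), 0 to 10 (LD* against controls), 0 to 1 (HD* against LD*), 3 to 15 (VHD against HD), 0 to 7 (intake) and 13 to 23 (cohort). Members lower ranged from 29 to 34, 31 to 34, 11 to 25, 17 to 25 and 3 to 15 in the first 5 of these. The share of all genes at an unadjusted p under 0.05 also moved with the animal left out. The ranges of that count are therefore no result about the members. In VHD against HD, genes called ranged from 476 to 4651, members called from 0 to 9, MBP from 0.66 to 1.09 and OLIG1 from -0.14 to 0.05. MBP ranged from -0.25 to 0.0868 and QDPR from -0.16 to 0.11 in HD* against controls, and QDPR from -0.24 to 0.0807 in LD* against controls. In HD* against LD*, PPP1R14A ranged from -0.0578 to 0.30, QDPR from -0.0267 to 0.16, OLIG1 from -0.0415 to 0.0552 and SLC44A1 from -0.0186 to 0.16. The OLIG1 slope with intake ranged from -0.0184 to 0.0333. The cause was not tested.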

Other observations

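Most other mature oligodendrocyte genes also had lower means in drinkers. In HD* animals 28 of 28 had a lower mean than in controls (median log2 difference -0.32, 3 at an unadjusted p under 0.05) and in LD* animals 27 of 28 (median -0.31, 3), and over all genes 5.29% (HD*) and 2.54% (LD*) were lower at that level. By limma 0 had an adjusted p under 0.05 in either comparison. Control 6 had the highest score for this list, 1.20, against -0.25 to 0.50 in the other controls. The scores ran from -0.66 to 0.41 in HD* animals and from -0.40 to 0.50 in LD* animals. The differences of this list without Control 6 are not given here. TMEM63A, a low gene with a control median of 3.42 TPM, differed by -0.59 ± 0.22 in HD* animals (adjusted p = 0.706). Between VHD and HD animals 10 of these genes were higher and 18 lower, and 1 of the 28 had an adjusted p under 0.05, against 11.4% of all genes lower and 3.23% higher. It was NFASC, a node and paranode adhesion gene chosen after its values were seen, at -0.88 (adjusted p = 0.0450). Neurons express NFASC too, and SNAP25 (-0.97), SYT1 (-1.04) and NEFM (-1.17) fell in the same comparison, but their part was not tested.

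Genes of oligodendrocyte precursors had lower means in both drinking groups, each compared with the same 8 controls. Control 6 had the highest score for this list, 0.62, against -0.02 to 0.36 in the other controls. The differences of this list without Control 6 or with cohort in the model are not given here. In HD* animals 16 of 16 were lower than in controls (median -0.34, 6 at an unadjusted p under 0.05) and in LD* animals 16 of 16 (median -0.19, 2), against the same 5.29% and 2.54% of all genes, with 0 at an adjusted p under 0.05 by limma. GPR17, a receptor of cells about to differentiate, was at 26.2 to 52.9 TPM in controls (median 34.6), 22.5 to 36.2 TPM in LD* animals (median 24.4) and 12.4 to 32.2 TPM in HD* animals (median 25.2), with differences of -0.50 ± 0.16 for HD* (adjusted p = 0.706) and -0.43 ± 0.16 for LD* (adjusted p = 1.00). The ranges overlapped. CSPG5, the most abundant of these genes, differed by -0.04 ± 0.10 for HD* and -0.02 ± 0.10 for LD*.

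In HD* animals against controls, where 5.29% of all genes were lower and 0.396% higher at an unadjusted p under 0.05, the remaining lists gave, by their means on the log2 scale, 8 of 8 astrocyte genes lower (2 at an unadjusted p under 0.05; AQP4 -0.48 ± 0.21, GFAP -0.12 ± 0.49), 5 of 8 microglia genes lower (0; CX3CR1 -0.35 ± 0.20, C1QB -0.06 ± 0.22), and 4 of 5 endothelial genes lower (2; CDH5 -0.32 ± 0.12, CLDN5 0.08 ± 0.14). Of 3 Schwann cell genes 2 were lower (0; PMP2 -0.21 ± 0.32), of 8 general neuron genes 7 (0; SNAP25 -0.18 ± 0.25, MAP2 -0.24 ± 0.15), and of 3 cortical genes 2 (0; SLC17A7 0.18 ± 1.39). PENK, of the striatal genes, differed by 0.50 ± 0.46 and TAC1 by 0.42 ± 0.32. In LD* animals, where the shares of all genes were 2.54% and 0.293%, the same lists gave on that scale 8 of 8 astrocyte genes lower (median -0.23, 2 at an unadjusted p under 0.05), 8 of 8 microglia genes (-0.23, 0), 4 of 5 endothelial genes (-0.15, 1), 1 of 3 Schwann cell genes (0.11, 0), 5 of 8 general neuron genes (-0.04, 0) and 1 of 3 cortical genes (0.07, 0). By limma none of the genes in these lists had an adjusted p under 0.05 in either comparison.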
